A study of Mus musculus with 8 samples.

Results

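The genes described here run the cell division cycle, and their RNA was measured by RNA-seq in mouse embryoid bodies, aggregates that embryonic stem cells form as they differentiate into many cell types at once. Of 46 listed genes, 44 had a locus in the deposited table that reached 10 normalised fragments in 2 or more of the 8 libraries, out of 16623 named loci that passed the same filter. Of these, 15 act in DNA replication, 14 in mitosis, and 15 are cyclins, cyclin-dependent kinases or kinase inhibitors. The other two listed genes, Cdt1 and Gins2, were not analysed here.

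There were 4 groups of 2 libraries each, all on a C57BL/6 background and all taken at day 9 of differentiation. The Prdm16 knockout was set against its own wild-type set, called the Prdm16 control. The PR domain knockout, whose titles name exon 4, was set against a separate wild-type set, called the PR domain control. All bodies grew in Knock-out DMEM with serum, and total RNA was used. Prdm16 encodes a zinc finger transcriptional regulator, and the PR domain is its N-terminal region related to histone methyltransferase domains. The question put by the design is which genes change in embryoid bodies that lack the gene or the domain.

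The labels do not say whether the 2 libraries of a group came from separate cultures or whether each line was 1 clone. The p-values therefore measure the spread between these libraries, and knockout and clone cannot be told apart. Prdm16 itself had 11.2 and 1.10 normalised fragments in the Prdm16 knockout, against 24.4 and 26.3 in the Prdm16 control, and the libraries did not overlap. It had 23.3 and 15.7 in the PR domain knockout, against 44.6 and 22.7 in the PR domain control, which overlapped. The Y-linked genes Ddx3y, Eif2s3y, Uty and Kdm5d were at 0 to 1.10 normalised fragments in the Prdm16 knockout, against 64.7 to 516 in the Prdm16 control. The same 4 genes lay at 452 to 1148 in the PR domain knockout, against 389 to 1029 in the PR domain control, so the Prdm16 pair differed in more than the labelled gene. Libraries held 6273789 to 9086885 fragments on named loci. A normalised fragment is a fragment count divided by the library's size factor, so 1 fragment was worth 0.827 to 1.24.

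A dividing cell licenses its replication origins by loading the MCM helicase, copies its DNA in S phase, and separates the copies in mitosis. D-type cyclins with Cdk4 or Cdk6 and E-type cyclins with Cdk2 inactivate the retinoblastoma protein, which frees E2F factors to switch on replication genes. Mitotic genes peak later, through promoters that carry a cell cycle homology region (CHR) and CCAAT boxes, bound by the MuvB complex with B-Myb and Foxm1 and by NF-Y. Early embryonic cells cycle fast with short gaps, and the cycle lengthens as cells differentiate.

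The promoters of 5 members are shown because they carry these elements and belong to genes described further on, 2 from replication, 2 from mitosis and Cdk1, which holds both kinds. The sequences are RefSeq's, on GRCm38.p6, from 250 bases before to 50 bases after the gene's start, written 5′ to 3′ on the gene's strand. Capitals mark 4 E2F words (TTTCCCGC, TTTGGCGC, TTTCGCGC and TTTGCCGC), the CHR word TTTGAA, and CCAAT, each searched on both strands, so that the reverse words also stand in capitals.
Mcm5 (chr8:75109259-75109558, plus strand): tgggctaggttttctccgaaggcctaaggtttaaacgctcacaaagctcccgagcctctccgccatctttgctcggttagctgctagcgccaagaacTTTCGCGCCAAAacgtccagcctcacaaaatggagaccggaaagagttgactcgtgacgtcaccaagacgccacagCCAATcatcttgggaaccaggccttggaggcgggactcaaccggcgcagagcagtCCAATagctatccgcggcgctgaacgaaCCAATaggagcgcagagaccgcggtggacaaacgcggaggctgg
Mcm6 (chr1:128359656-128359955, minus strand): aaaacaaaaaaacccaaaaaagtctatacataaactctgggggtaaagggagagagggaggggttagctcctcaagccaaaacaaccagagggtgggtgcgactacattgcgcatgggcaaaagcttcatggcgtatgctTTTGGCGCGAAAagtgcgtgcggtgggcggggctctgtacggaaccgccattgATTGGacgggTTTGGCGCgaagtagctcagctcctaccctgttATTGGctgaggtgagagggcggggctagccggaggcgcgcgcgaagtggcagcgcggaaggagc
Cdc20 (chr4:118437294-118437593, minus strand): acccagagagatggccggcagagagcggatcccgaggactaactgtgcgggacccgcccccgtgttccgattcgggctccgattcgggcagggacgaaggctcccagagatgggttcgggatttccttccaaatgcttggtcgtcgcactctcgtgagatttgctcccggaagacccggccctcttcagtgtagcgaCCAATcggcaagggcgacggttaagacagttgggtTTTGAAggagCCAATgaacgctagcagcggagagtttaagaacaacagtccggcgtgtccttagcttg
Kif11 (chr19:37376132-37376431, plus strand): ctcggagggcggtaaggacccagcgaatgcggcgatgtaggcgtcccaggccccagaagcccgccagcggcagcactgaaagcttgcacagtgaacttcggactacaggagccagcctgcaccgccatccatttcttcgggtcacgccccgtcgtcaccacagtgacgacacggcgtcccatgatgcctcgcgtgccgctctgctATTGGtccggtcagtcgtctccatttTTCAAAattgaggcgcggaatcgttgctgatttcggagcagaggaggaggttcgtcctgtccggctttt
Cdk1 (chr10:69352863-69353162, minus strand): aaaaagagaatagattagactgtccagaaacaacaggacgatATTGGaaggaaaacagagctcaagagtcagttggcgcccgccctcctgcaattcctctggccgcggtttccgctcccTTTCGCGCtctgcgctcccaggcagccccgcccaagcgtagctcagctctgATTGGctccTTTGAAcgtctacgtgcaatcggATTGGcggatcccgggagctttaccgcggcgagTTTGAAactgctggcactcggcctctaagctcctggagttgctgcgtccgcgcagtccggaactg

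In Mcm5 and Mcm6 a pair of E2F words on opposite strands overlapped and shared their middle bases, and Mcm6 held a further E2F word. RefSeq promoters matched 37 of the 44 members. An E2F word was found for 6 of 14 replication members (42.9%), for 0 of 12 mitotic members and for 2 of 11 cyclins, kinases and inhibitors (18.2%), beside 2.61% of all 27025 genes with a promoter. The CHR word was found for 3 of 14 replication members (21.4%), 9 of 12 mitotic members (75%) and 2 of 11 of the third group (18.2%), beside 20.2% of all genes. CCAAT was found for 11 of 14, 11 of 12 and 7 of 11, beside 41.1% of all genes. These are matches of letters in 1 window, not measured binding sites.

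Levels between genes were compared per length, in the authors' FPKM. The mean over the 8 libraries was highest for Cdk4 at 993 FPKM, then Ccnd3 at 312, Cdk1 at 294 and Top2a at 170 FPKM. The lowest were Cdk6 at 2.89, E2f2 at 2.78 and Cdkn2c at 2.34 FPKM. In all, 6 members averaged over 100 FPKM and 5 under 10. The median member stood at 60.4 FPKM among replication genes, 42.7 among mitotic genes and 57.6 among cyclins, kinases and inhibitors. Cdk4, a partner of the D cyclins, stood far above its homologue Cdk6 in every library.

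**Figure D1:**
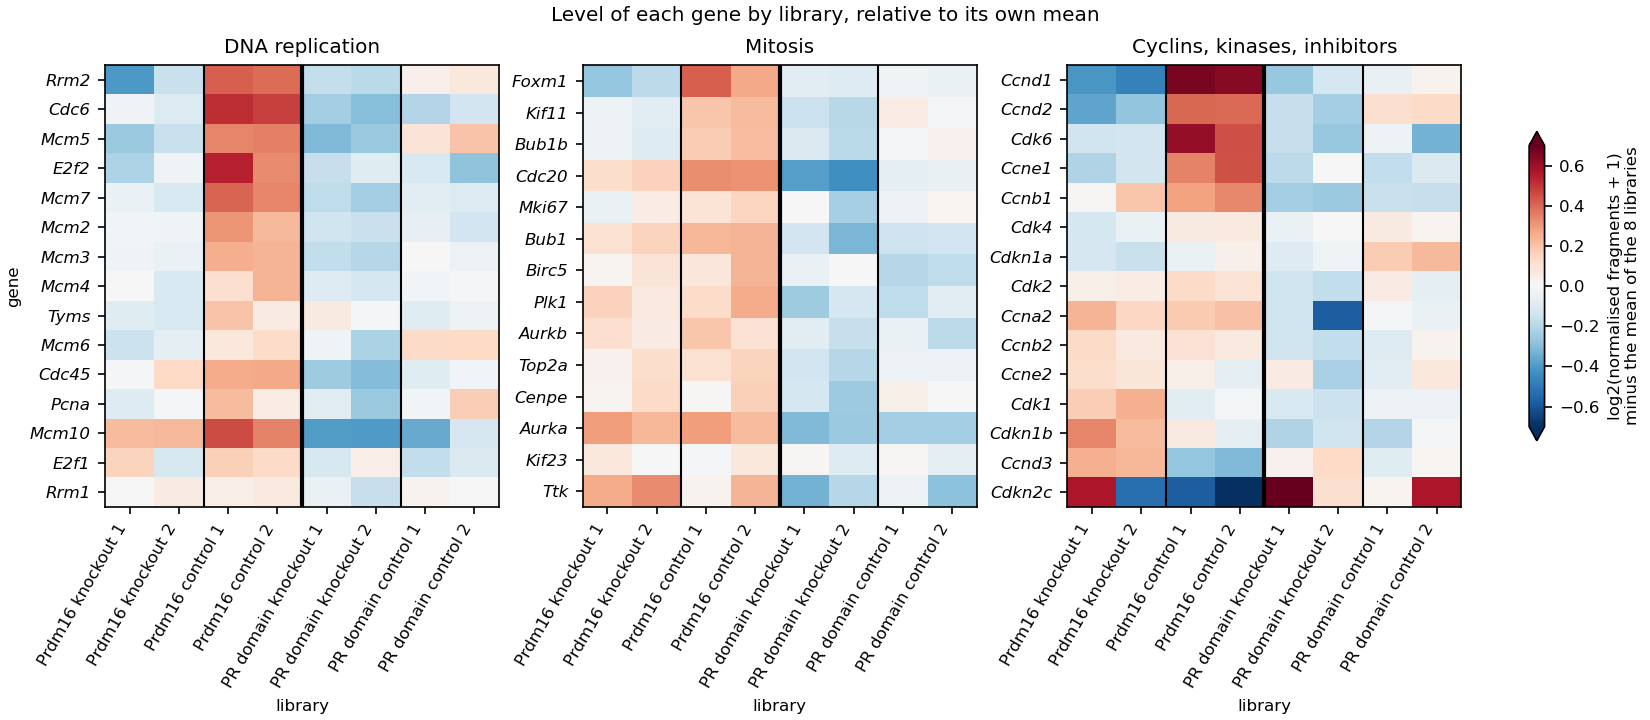
Level of each of the 44 members in each of the 8 libraries, as log2 relative to the member's mean over the libraries, with the knockout left of its control in each pair and the genes grouped by role. The Prdm16 control columns are the highest for most replication genes, and Cdkn2c, Ccnd1 and Cdk6 span the widest range of levels over the 8 libraries.

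The reading of 7 members is limited by their loci. Mki67 named 2 loci, and the one with the higher level is given first. The locus of Mcm7 also carried Mir25 and Mir93, that of Top2a carried Gm23451, and that of Foxm1 carried Gm26770, Gm44371, Gm44596, Nrip2 and Tex52, so their values belong to no single gene. Processed copies of Pcna, Ccnb1 and Tyms elsewhere in the genome can share their reads.

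Replication genes were lower in the Prdm16 knockout. Of 15 measured, 10 fell and 0 rose in limma-trend on log2(normalised fragments + 1), at a Benjamini-Hochberg adjusted p below 0.05 over all 16623 loci. Over all 44 members 20 fell and 3 rose, 52.3% called, where 39.1% of all tested loci were called, 21.1% lower and 18% higher. The median change of the replication members was -0.23 on the log2 scale, beside -0.03 over all loci. In 13 of the 15, both knockout libraries lay below both controls, an arrangement that 36.5% of all loci showed, and both above both in 0 (31.3% of all loci).

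Rrm2, the regulated subunit of ribonucleotide reductase that supplies deoxynucleotides, had 660.0 and 782 normalised fragments in the Prdm16 knockout, against 1166 and 1147 in the Prdm16 control. Both knockout libraries lay well below both controls, at 62.4% of the control mean. The log2 change was -0.69 ± 0.07 (SE; limma, adjusted p = 9.14e-10). Rrm1, its partner subunit, had 2342 and 2436 in the knockout, against 2418 and 2459 in the control, and was not called (-0.03 ± 0.05, adjusted p = 0.644 in limma).

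Mcm5, a subunit of the helicase whose promoter is printed above, had 1387 and 1492 normalised fragments in the Prdm16 knockout, against 2109 and 2123 in the control. The groups stood clearly apart, with a log2 change of -0.56 ± 0.05 (limma, adjusted p = 3.57e-10). Mcm7 had 741 and 711 in the knockout, against 1013 and 968 in the control (-0.45 ± 0.06, limma adjusted p = 7.62e-07). The other four core subunits fell by less. Their log2 changes were -0.29 ± 0.05 for Mcm2, -0.28 ± 0.05 for Mcm3, -0.23 ± 0.05 for Mcm4 and -0.21 ± 0.05 for Mcm6 (limma, adjusted p of 1.26e-05, 1.26e-05, 0.000949 and 0.00165).

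Cdc6, which loads the helicase on origins, had 174 and 165 normalised fragments in the Prdm16 knockout, against 253 and 246 in the control. That is a log2 change of -0.56 ± 0.11 (limma, adjusted p = 0.00021), with no overlap. The factors that fire the loaded helicase were not called: Mcm10 had 462 and 464, against 544 and 503, and Cdc45 had 337 and 374, against 406 and 408 (limma, adjusted p of 0.1 and 0.071). Pcna, the sliding clamp of the polymerases, had 572 and 606 in the knockout, against 710.4 and 630.2 in the control, and was not called either (adjusted p = 0.0614 in limma). Both groups of each of these 3 genes stood apart with the knockout lower.

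Tyms, which makes thymidylate, had 373 and 369 normalised fragments in the Prdm16 knockout, against 456 and 413 in the control (-0.23 ± 0.08, limma adjusted p = 0.0264). The activator E2f2 was low throughout, at 42.2 and 48.4 in the knockout, against 72.1 and 62.1 in the control (-0.56 ± 0.22, limma adjusted p = 0.0409). Both calls ended with TMM scaling and with edgeR or DESeq2 on the recovered fragments. E2f1, its homologue, had 233 and 194 in the knockout, against 235 and 230.4 in the control, and was not called (limma, adjusted p = 0.374).

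Of the mitotic genes, 4 of 14 fell in the Prdm16 knockout and 0 rose, 28.6% lower beside 21.1% of all loci, with a median log2 change of -0.09. Both knockout libraries lay below both controls in 6 of the 14, where 36.5% of all loci did so. Foxm1, a forkhead factor that drives G2 and M phase genes, had 731 and 778 normalised fragments in the knockout, against 1181 and 1060.0 in the control. Its level was 67.3% of the control mean, with a log2 change of -0.57 ± 0.06 (limma, adjusted p = 1.04e-08). The locus is shared with other names, as given above.

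Kif11, the motor that pushes spindle poles apart, had 1274 and 1243 normalised fragments in the Prdm16 knockout, against 1497 and 1526 in the control (-0.26 ± 0.05, limma adjusted p = 0.000119). Bub1b, a spindle checkpoint protein, had 1289 and 1238, against 1494 and 1534 (-0.26 ± 0.05, limma adjusted p = 0.000166). Neither pair of groups overlapped. Cdc20, which activates the anaphase-promoting complex, had 669 and 687 in the knockout, against 769 and 762 in the control (-0.18 ± 0.07, limma adjusted p = 0.0334). That call ended with TMM scaling, with edgeR and when any 1 of its 4 libraries was left out. On log2(FPKM + 1) Cdc20 was not called either, nor were Foxm1, Kif11 and Bub1b.

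The other 10 mitotic genes were not called in the Prdm16 knockout. The mitotic kinase Aurka had 734 and 705 normalised fragments in the knockout, against 736 and 698 in the control. Plk1, another mitotic kinase, had 524 and 492, against 513 and 561. In both genes the groups overlapped. Mki67, the common proliferation marker, had 3252 and 3484 in the knockout, against 3591 and 3728 in the control (-0.12 ± 0.05, limma adjusted p = 0.0633), and its second locus changed by -0.12 (adjusted p = 0.0812 in limma). Ttk, a checkpoint kinase, was the one mitotic gene whose knockout libraries both lay above the controls, at 529 and 555, against 447 and 520.1, without a call (limma, adjusted p = 0.139).

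Cyclins, kinases and inhibitors went in both directions in the Prdm16 knockout, with 6 of 15 lower (40%, beside 21.1% of all loci) and 3 higher (20%, near the 18% of all loci), and a median log2 change of -0.07. The widest changes of called members were in Ccnd1 and Ccnd2. Both are D-type cyclins, the regulatory subunits that bring Cdk4 and Cdk6 into play in G1. Ccnd1 had 332.5 and 318 normalised fragments in the knockout, against 701 and 688 in the control, at 46.8% of the control mean. The log2 change was -1.09 ± 0.08 (limma, adjusted p = 1.57e-12). Ccnd2 had 1334 and 1422 in the knockout, against 2282 and 2269 in the control (-0.72 ± 0.05, limma adjusted p = 4.65e-13). Ccnd3 went the other way, with 2249 and 2226 in the knockout, against 1566 and 1525 in the control (0.53 ± 0.05, limma adjusted p = 3.22e-10). No library of the knockout overlapped the control in any of the 3 genes.

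Per length, Ccnd3 made up 86.2 and 79.0% of the summed FPKM of the 3 D cyclins in the Prdm16 knockout, against 59.7 and 59.8% in the control. Ccnd2 made up 11.6 and 17.5% in the knockout, against 33.7 and 31.6% in the control. Ccnd1 was the smallest share, at 2.26 and 3.54% in the knockout, against 6.63 and 8.65% in the control. The sum of the 3 genes was 498 and 455 FPKM in the knockout, against 431 and 410.5 FPKM in the control, higher in both knockout libraries than in both controls. Shares in FPKM could differ widely between replicates where normalised fragments did not. In the 2 PR domain control libraries Ccnd3 made up 73.3 and 61.4% and Ccnd2 20.5 and 33.8%. Ccnd2 had 84.3 and 153 FPKM there, although its normalised fragments in these libraries, given further on, were nearly equal. FPKM per fragment thus varied between libraries, and the shares and sums above carry that spread. In the PR domain knockout Ccnd3 made up 77.8 and 77.5%.

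**Figure D2:**
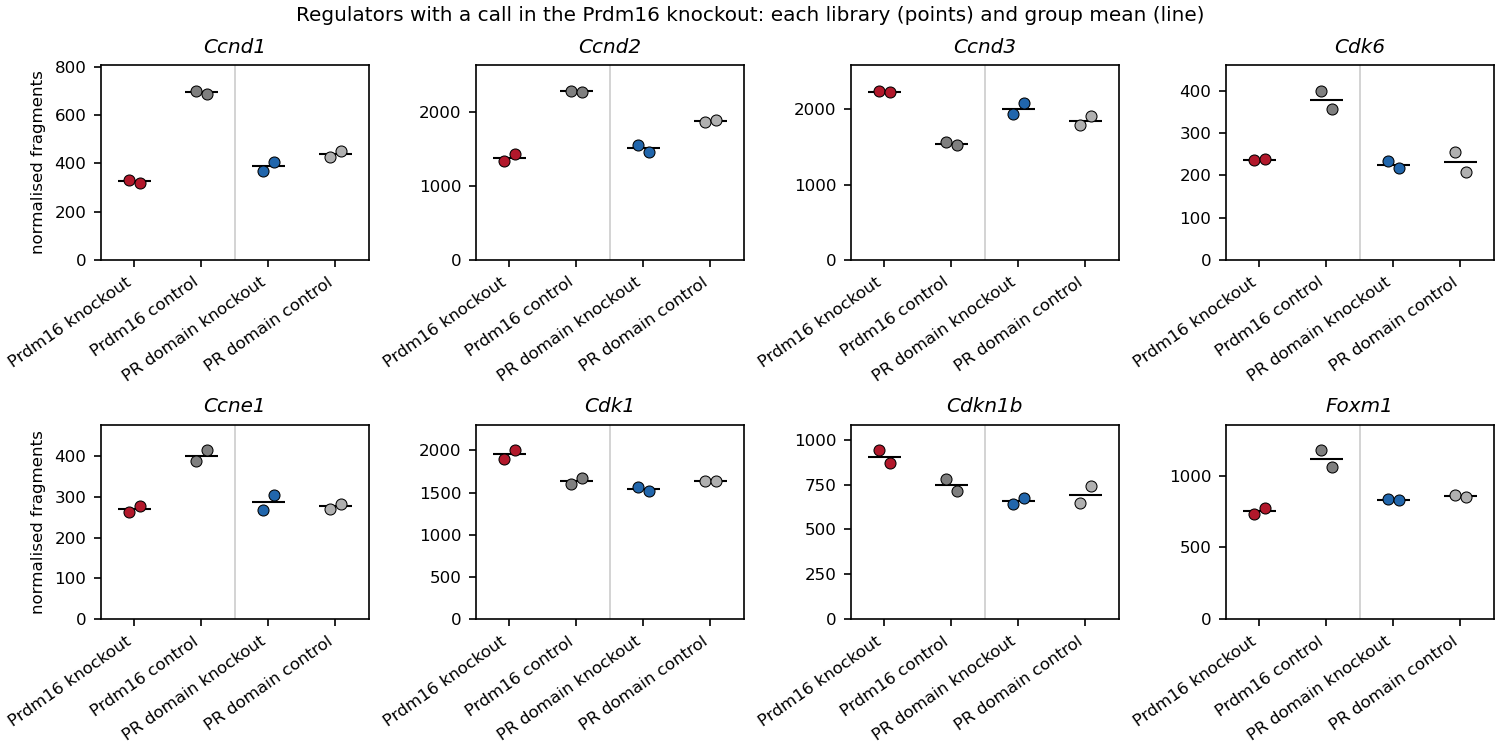
Normalised fragments of selected cyclins, kinases and other regulators in each library, 1 point per library, with the knockout left of its control in each pair and each panel on its own linear scale. Ccnd1 and Ccnd2 lie lower and Ccnd3 higher in both Prdm16 knockout libraries than in both Prdm16 controls, while the PR domain pair differs by less in each of these 3 genes.

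Ccne1, a cyclin that brings Cdk2 into play at the start of S phase, had 263 and 278 normalised fragments in the Prdm16 knockout, against 388 and 416 in the control (-0.57 ± 0.09, limma adjusted p = 1.04e-05). Its paralogue Ccne2 had 331 and 322, against 313 and 291, without a call (limma, adjusted p = 0.369). Cdk6 had 237 and 238 in the knockout, against 401 and 356 in the control (-0.67 ± 0.10, limma adjusted p = 5.6e-06). Cdk4 fell by far less, at 4277 and 4522 in the knockout, against 4867 and 4890 in the control (-0.15 ± 0.04, limma adjusted p = 0.00207). Its call ended on log2(FPKM + 1) and without Prdm16 knockout replicate 1. Since Cdk4 held at least 99.5% of the summed FPKM of the pair in each library of the Prdm16 set, the change of Cdk6 left that share nearly as it was.

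Cdk1, the kinase that starts mitosis, rose in the Prdm16 knockout. It had 1899.5 and 2006 normalised fragments in the knockout, against 1604 and 1668 in the control, with no overlap (0.25 ± 0.05, limma adjusted p = 8.72e-05). None of its cyclins was called higher. Ccnb1 had 373 and 425 in the knockout, against 451 and 469 in the control (-0.21 ± 0.08, limma adjusted p = 0.0497), a call that ended in 15 of 19 refits, with a change of -0.11 without Prdm16 knockout replicate 1. Ccnb2 and Ccna2 were not called, at log2 changes of 0.02 and -0.00 (limma, adjusted p of 0.872 and 0.971).

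Among the inhibitors, Cdkn1b (p27) had 943 and 868 normalised fragments in the Prdm16 knockout, against 779 and 714 in the control (0.28 ± 0.07, limma adjusted p = 0.00198). The Cdkn1b call ended on log2(FPKM + 1) and without Prdm16 control replicate 2. Cdkn1a (p21), a p53 target, had 794 and 773 in the knockout, against 835 and 885 in the control, without a call (limma, adjusted p = 0.0752). Cdkn2c (p18) was near the filter, at 43.4 and 19.8, against 19.1 and 14.1 (0.80 ± 0.33, limma adjusted p = 0.0541), and it was called higher in 6 of 19 refits. Its 2 knockout libraries differed by more than the lower of them did from the controls.

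In the Prdm16 knockout Mcm5, Rrm2, Ccne1, Ccnd1, Ccnd3 and Cdk6 were called in each of 19 refits and at a minimum fold of 1.2. Cdk1 was called in the 19 refits, but not at that fold. On log2(FPKM + 1) the genes just named and Kif23 were called, 8 members in place of 23. The calls of Ccnd2, Mcm7 and Foxm1 were among those that ended there. At the minimum fold 9 members were called.

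**Figure D3:**
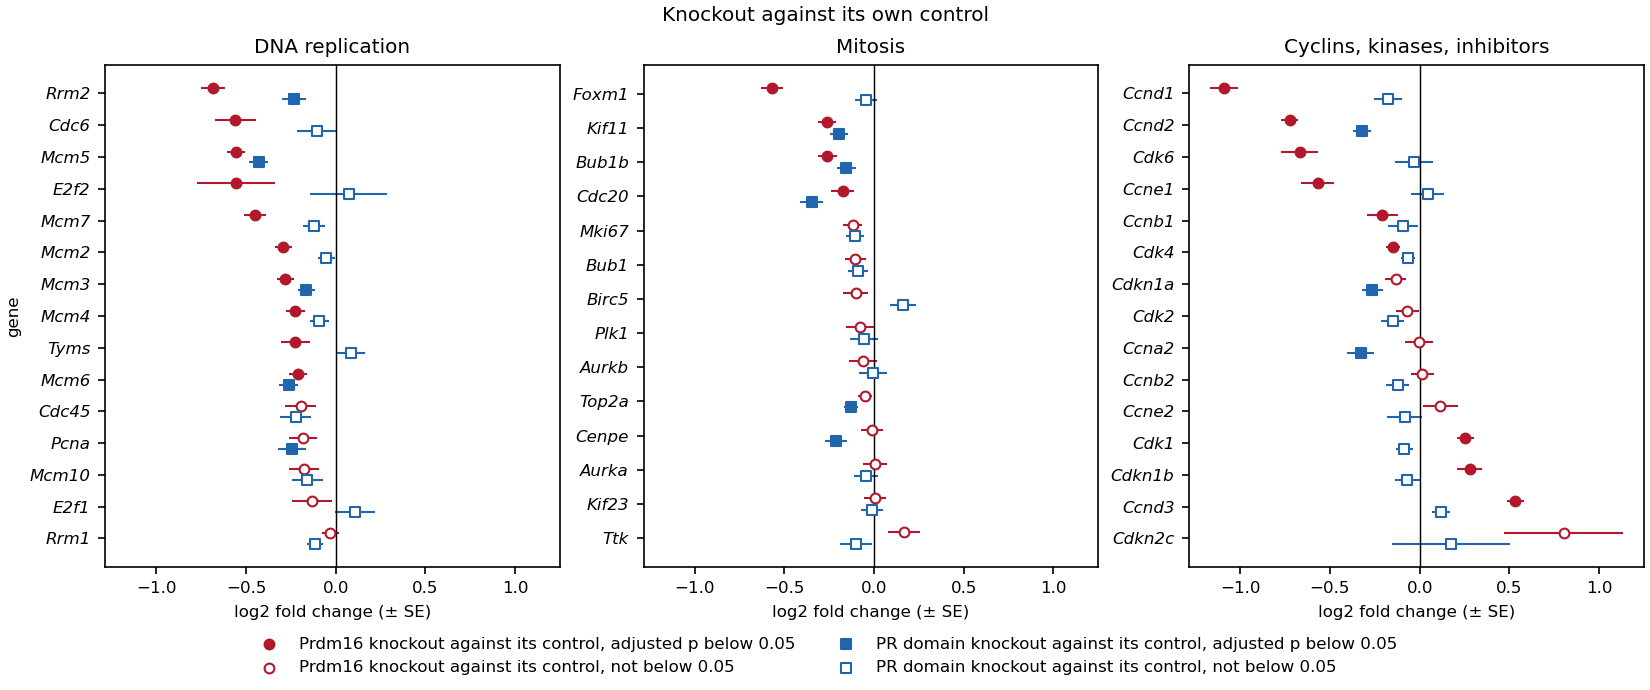
Log2 change of each member in either knockout, Prdm16 or PR domain, against its own control, with bars of 1 standard error from limma and filled points for calls. Replication genes lie to the left of 0 in the Prdm16 knockout, and Ccnd1 at -1.09 and Ccnd3 at 0.53 are the called members farthest out on each side.

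Other genes of the same processes were taken from lists. Of 40 other replication genes, 22 fell and 1 rose in the Prdm16 knockout, 55% lower beside 21.1% of all loci, with a median log2 change of -0.19. The lowest adjusted p values among them belonged to Wdhd1, a replisome adaptor (-0.64 ± 0.07), Uhrf1, which keeps DNA methylation through replication (-0.44 ± 0.06), and Pole, the leading strand polymerase (-0.44 ± 0.07), with limma adjusted p of 3.83e-08, 2.4e-06 and 4.92e-06. Orc3, of the origin recognition complex, was the 1 that rose (0.18 ± 0.07, limma adjusted p = 0.0288). The other 17 were not called.

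Of 45 other mitotic genes tested, 12 fell (26.7%, beside 21.1% of all loci) and 4 rose (8.89%, beside 18%) in the Prdm16 knockout, with a median of -0.10. The condensin subunit Ncapd2 had 2113 and 2127 normalised fragments in the knockout, against 2955 and 3109 in the control (-0.52 ± 0.04, limma adjusted p = 6.09e-11). Securin, Pttg1, rose instead, at 202 and 193 in the knockout, against 121 and 149.5 in the control (0.55 ± 0.11, limma adjusted p = 0.000159). Racgap1, of the cytokinesis machinery, and Hmmr, a spindle protein, also rose, by 0.29 and 0.28 on the log2 scale.

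Of 37 other cell cycle control genes tested, 8 fell and 2 rose in the Prdm16 knockout, and the 21.6% lower was near the 21.1% of all loci. Mycn, a Myc family factor, had 228 and 229.9 normalised fragments in the knockout, against 397 and 331 in the control (-0.66 ± 0.10, limma adjusted p = 2.47e-06). Tfdp1, the partner of E2F factors, fell by 0.49 and E2f4, a repressor E2F, by 0.35 on the log2 scale. The inhibitor Cdkn1c (p57) rose, at 3201 and 3023 in the knockout, against 2392 and 2516 in the control (0.34 ± 0.05, limma adjusted p = 5.06e-07). Of 25 genes in a list of p53 targets that also holds Trp53, 13 fell (52%) and 4 rose (16%, near the 18% of all loci). Trp53, counted among those that fell, had 514 and 534 in the knockout, against 816 and 778 in the control (-0.61 ± 0.07, limma adjusted p = 1.28e-08). Btg2, an antiproliferative target, rose by 1.02.

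In the PR domain knockout 13 members fell and 0 rose, 29.5% of the 44, where 19.2% of all tested loci were called, 10.7% lower and 8.48% higher. Of these, 5 were replication genes, 5 mitotic genes and 3 cyclins or inhibitors. The median log2 changes were -0.12, -0.10 and -0.08 in that order, beside -0.03 over all loci. Both knockout libraries lay below both controls in 28 of 44 members, where 31.9% of all loci did so, and above both in 3, where 24.7% of all loci did. Without PR domain knockout replicate 2 the count was 5, without PR domain control replicate 1 it was 8, and on log2(FPKM + 1) it was 1.

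Mcm5 again stood out among the replication genes, with 1341 and 1388 normalised fragments in the PR domain knockout, against 1769 and 1911 in the PR domain control. The log2 change was -0.43 ± 0.05 (limma, adjusted p = 1.33e-07), and this was the 1 call in the comparison that held in each of the 19 refits. Mcm6 had 2066 and 1808 in the knockout, against 2316 and 2323 in the control (-0.26 ± 0.05, limma adjusted p = 0.000306), a fall that was -0.17 and still called without PR domain knockout replicate 2. Mcm3 fell by 0.16 and Rrm2 by 0.23 on the log2 scale (limma, adjusted p of 0.0105 and 0.0107). The Mcm3 call ended in 4 of the 19 refits and the Rrm2 call in 5, both with the DESeq2 Wald test and without PR domain knockout replicate 2. Mcm3 was also lost without PR domain control replicate 1 and Rrm2 without PR domain control replicate 2.

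Pcna had 579 and 509 normalised fragments in the PR domain knockout, against 601 and 686 in the control (-0.24 ± 0.08, limma adjusted p = 0.025). Its processed copy Pcna-ps2, which can share its reads, also fell in that comparison (-0.42, limma adjusted p = 0.000832), and the Pcna call ended in 7 of the 19 refits, with TMM and DESeq2 median-ratio scaling among them. Its change was -0.15 without PR domain control replicate 2, and also without PR domain knockout replicate 2, and neither was called. Mcm2, Mcm4 and Mcm7 were lower by 0.05, 0.09 and 0.12 without a call. The log2 changes of the 6 core helicase subunits thus ranged from -0.05 for Mcm2 to -0.43 for Mcm5, and differences between genes were not tested.

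Cdc20 fell most among the mitotic genes of the PR domain knockout. It had 469 and 456 normalised fragments in the knockout, against 587 and 590.4 in the control, at 78.6% of the control mean (-0.35 ± 0.07, limma adjusted p = 0.000177). Kif11 had 1182 and 1143, against 1357 and 1304 (-0.19 ± 0.05, limma adjusted p = 0.00602). The kinetochore motor Cenpe had 1059 and 969, against 1187 and 1158 (-0.21 ± 0.06, limma adjusted p = 0.0121). All 3 pairs stood apart. The Kif11 and Cenpe calls ended without PR domain knockout replicate 2 or PR domain control replicate 1. Bub1b and Top2a, which untangles DNA, fell by 0.16 and 0.13 on the log2 scale (limma, adjusted p of 0.0336 and 0.0162), and both calls ended with TMM or DESeq2 median-ratio scaling. Foxm1 was not called, with 839 and 829.6 in the knockout, against 865 and 855 in the control (-0.04 ± 0.06, limma adjusted p = 0.703).

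Ccnd2 had 1543 and 1461 normalised fragments in the PR domain knockout, against 1861 and 1889 in the control (-0.32 ± 0.05, limma adjusted p = 8.39e-06). Ccnd1 had 368 and 406, against 426 and 449, and Ccnd3 had 1935 and 2081, against 1786 and 1908. The groups stood apart in both genes, but neither was called (limma, adjusted p of 0.114 and 0.0852). Ccna2, the cyclin of S and G2 phase, had 1277 and 941 in the knockout, against 1394 and 1361 in the control (-0.33 ± 0.08, limma adjusted p = 0.00182). That fall rested on the second knockout library, without which it was -0.11 and not called. Cdkn1a had 811 and 844.5 in the knockout, against 976 and 1011 in the control (-0.26 ± 0.06, limma adjusted p = 0.00142).

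Of the 40 other replication genes, 7 fell (17.5%, beside 10.7% of all loci) and 0 rose in the PR domain knockout, Orc6 by 0.40, Gins4 by 0.37 and Pola2 by 0.32 on the log2 scale among them. Of 45 other mitotic genes 8 fell (17.8%) and 0 rose. Of 37 other control genes 3 fell and 1 rose, and the 8.11% lower was under the 10.7% of all loci. E2f4 had 600.2 and 590 normalised fragments in the knockout, against 878 and 836 in the control (-0.53 ± 0.06, limma adjusted p = 1.33e-07). Of the 25 genes in the p53 target list 7 fell (28%) and 2 rose (8%, beside 8.48% of all loci). Btg2 had 1193 and 1320.1 in the knockout, against 2551 and 2513 in the control (-1.01 ± 0.05, limma adjusted p = 1.25e-15). Btg2 was thus lower in the PR domain knockout, and higher in the Prdm16 knockout, than in its control, and the difference of both changes was 2.03 ± 0.07 (limma, adjusted p = 1.33e-19).

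Both knockouts had 8 members lower: Mcm3, Mcm5, Mcm6, Rrm2, Cdc20, Bub1b, Kif11 and Ccnd2. They are 8 of the 20 that fell in the Prdm16 knockout and 8 of the 13 that fell in the PR domain knockout. Over all loci 1024 (6.16%) were lower in both, out of 3515 that fell in the Prdm16 knockout and 1780 that fell in the PR domain knockout. The 8 of 13 is thus near the share of all loci. No member was higher in both, where 5.43% of all loci were, and 16 were called in neither, 8 of them mitotic. No share over all loci was computed beside those 16, so they do not show that members changed less often. For the Prdm16 knockout 52.3% of members had a call, beside 39.1% of all loci. For the PR domain knockout these shares were 29.5% and 19.2%. The difference between the knockout effects was tested as a contrast of its own, the Prdm16 knockout's change minus the PR domain knockout's. It was called for 12 members, 4 above and 8 below 0, that is 27.3% of them, where 16.4% of all loci were called, 8.6% above and 7.81% below 0. Ccnd1 led with -0.91 ± 0.11 (limma, adjusted p = 3.15e-07), followed by Cdk6, Ccne1 and Foxm1 at -0.64, -0.61 and -0.53. The members with a difference above 0 were Ccnd3, Cdkn1b, Cdk1 and Ccna2. Among the 15 cyclins, kinases and inhibitors 8 were called, among the replication genes 3, and Foxm1 was the 1 mitotic gene. Of the 8 that fell in both knockouts, the difference was called for Rrm2 and Ccnd2 and not for the other six. For Mcm5 it was -0.13 ± 0.07 and not called (limma, adjusted p = 0.254), which does not show that the effects were alike.

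The wild-type sets also differed. The PR domain control had 29 members lower and 3 higher than the Prdm16 control, 72.7% called, where 33% of all loci were called, 16.7% lower and 16.3% higher. Both PR domain control libraries lay below both Prdm16 control libraries in 33 members (33.1% of all loci) and above both in 4 (32.1% of all loci). Replication genes made up 11 of the lower ones, mitotic genes 12 and the third group 6. Mcm10 had 310.3 and 365 normalised fragments in the PR domain control, against 544 and 503 in the Prdm16 control (-0.63 ± 0.08, limma adjusted p = 5.16e-07). Aurka had 509 and 508, against 736 and 698 (-0.49 ± 0.07, limma adjusted p = 6.94e-07), and was called in neither knockout. Cdk6 and Ccnd1 had changes of -0.72 ± 0.10 and -0.67 ± 0.08 between the control sets (limma, adjusted p of 2.28e-06 and 4.2e-08). This comparison shares the Prdm16 control with that of the Prdm16 knockout, so the values stand side by side only. Foxm1 was at -0.38 here and at -0.57 in the knockout, and Ccne1 at -0.53 and -0.57.

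The higher members in the PR domain control were Ccnd3 (0.26), Cdkn1a (0.21) and Cdkn2c (1.08). Cdkn2c had 29.4 and 43.3 normalised fragments in the PR domain control, against 19.1 and 14.1 in the Prdm16 control, a call that ended without replicate 2 of either set. Of the 20 members lower in the Prdm16 knockout, 17 were also lower in the PR domain control, both against the Prdm16 control. Of those 17, 8 were replication genes. Both counts rest on the same Prdm16 control libraries, and 65.9% of all members were lower in the PR domain control. The share over all loci was not computed, so the counts do not show that the comparisons share a change. Ccne1, for example, had 263 to 305 normalised fragments in the other 6 libraries, against 388 and 416 in the Prdm16 control. The labels do not say how the sets were handled, so the source of this difference cannot be told apart from the set itself. The Y-linked Kdm5d had 480 and 471 normalised fragments in the PR domain control, against 64.7 and 83.7 in the Prdm16 control (2.67 ± 0.19, limma adjusted p = 1.29e-12). Ddx3y, Eif2s3y and Uty were also called higher there, by 1.01, 0.74 and 1.07 on the log2 scale. Markers of cell types differed too: all 10 endoderm markers were lower in the PR domain control (median log2 difference -2.17), while all 10 macrophage markers (1.56) and 9 of 10 cardiomyocyte (1.09) and endothelial markers (0.59) were higher. Neural progenitor markers had 6 lower and 2 higher, and erythroid markers 5 higher and 0 lower. Of 7 pluripotent cell markers tested 5 were lower and 2 higher. Over all loci 16.7% were lower and 16.3% higher. The part of the marker differences in those of the cell cycle genes was not tested.

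**Figure D4:**
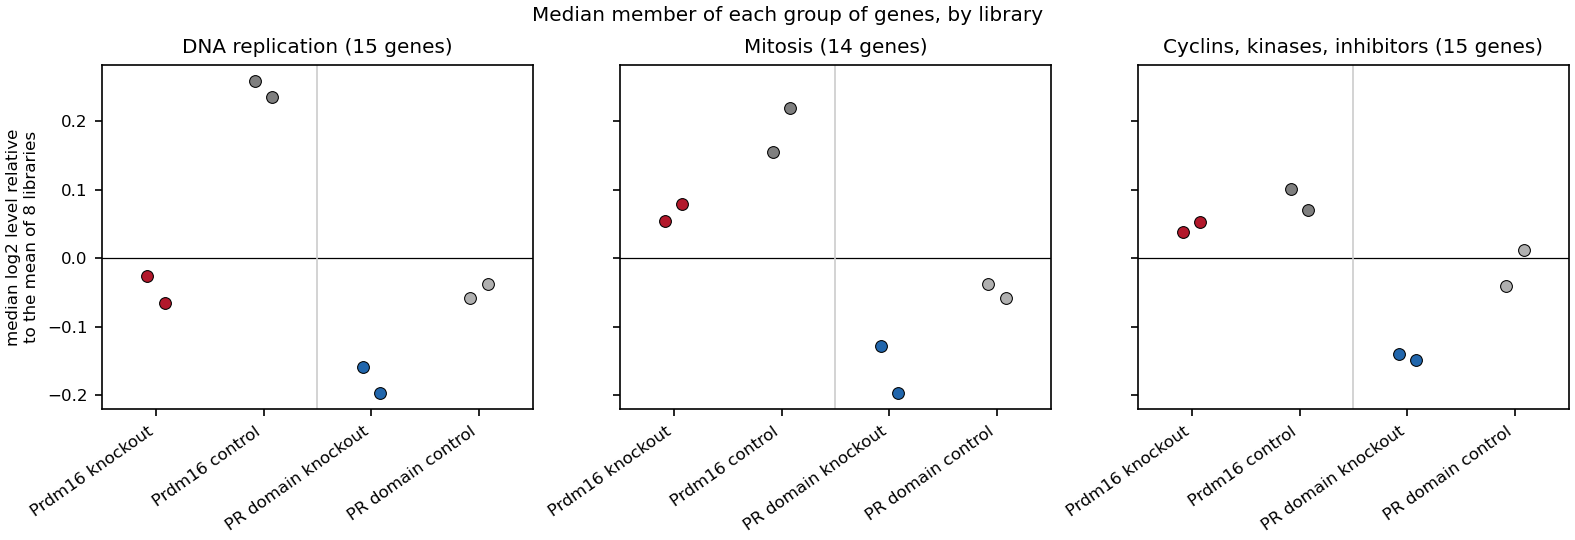
Median member of each group of genes in each library, as log2 relative to the mean of the 8 libraries, 1 point per library, with the knockout left of its control in each pair. For replication genes the medians of the Prdm16 pair were -0.03 and -0.07 with knockout, against 0.26 and 0.24 in its control, and those of the PR domain pair were -0.16 and -0.20 with knockout, against -0.06 and -0.04 in its control.

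The RNA of cell type markers moved with the groups, in summed normalised fragments over 10 markers of each cell type. These sums are not scaled by length, and abundant genes weigh most in them. In the Prdm16 knockout 9 neural progenitor markers fell, at 1114 to 1132 in the knockout, against 1994 to 2077 in the control. Endoderm markers rose in 8 cases, at 91906 to 92310.0 in the knockout, against 44549 to 46538 in the control, and macrophage markers in 9, at 3390 to 3458, against 1460 to 1553. Erythroid markers had 6 higher and 1 lower, cardiomyocyte markers 1 higher and 7 lower, and endothelial markers 2 higher and 5 lower. Of 7 pluripotent cell markers tested 2 were higher and 4 lower. Over all loci 18% were higher and 21.1% lower, so the 2 endothelial markers that rose were near the share of all loci.

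In the PR domain knockout all 10 cardiomyocyte markers fell, at 9024 to 9085 in the knockout, against 17024 to 17091 in the control, and so did all 10 endothelial markers. All 10 macrophage markers rose, at 9454 to 9509 in the knockout, against 4850 to 4923 in the control, and 8 erythroid markers, at 20751 to 21037, against 10417 to 10981. Endoderm markers had 9 higher and 1 lower, at 17703 to 18243 in the knockout, against 9648 to 10131 in the control. Neural progenitor markers had 4 lower and 0 higher, at 1502 to 1508, against 2095 to 2187. Of 7 pluripotent cell markers tested 2 were higher and 2 lower. Over all loci 8.48% were higher and 10.7% lower. Several lists thus moved the same way in both knockouts.

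No marker was at 0 in both libraries of a group. In bulk RNA, fewer cells of a type and less RNA per cell cannot be told apart, and the part of cell makeup in the changes of the cell cycle genes was not tested.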

How the data were processed

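RNA-seq libraries were made from total RNA with Trizol, RNeasy columns and the Illumina TruSeq protocol, per the labels' protocols. Tools listed in the submitters' processing notes, on the mm10 build, are Cufflinks 2.2.1, TopHat2 2.1.1, SAMtools 1.5 and deepTools. No source used here gives the annotation release or strand setting, so overlapping and antisense genes cannot be told apart. The deposited signal values are fragments per locus divided by 1 size factor per library by the authors, in the form Cuffnorm writes, per the file headers and the values. Divided by a library's step, 99.99 to 100% of them were whole fragments within 0.1. The deposited FPKM values, which the authors scaled by length and depth, per the file headers, served for levels between genes and as an alternative. FPKM per fragment of 1 locus was not the same in all libraries.

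Loci at 10 or more in at least 2 libraries were tested, 16623 in all, and 787 loci with no name, holding 1.88 to 2.53% of fragments, were left out. Limma 3.58.1 (limma-trend, R 4.3.3) was fitted to log2(value + 1) with the 4 group means over all 8 libraries, which left 4 residual and 25.4 prior degrees of freedom, and Benjamini-Hochberg adjusted p below 0.05 was a call. Alternatives were TMM, DESeq2 median-ratio and total-fragment scaling, edgeR 4.0.16 and DESeq2 1.42.0 on recovered fragments, log2(FPKM + 1), pseudocounts of 0.5 and 5, no filter, only the 4 libraries compared, a replicate block, a minimum fold of 1.2 and leaving out each library. For the Prdm16 knockout limma called 6502 loci and edgeR 6470, and for the PR domain knockout limma called 3190 and edgeR 3418. The scripts were tested on simulated data. Libraries of a group differed by more than counting error (chi-square over degrees of freedom of 1.40 to 2.23). Promoters came from RefSeq (GRCm38.p6) and coordinates from GENCODE M21 (GRCm38).

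The members and gene lists were chosen with earlier results of these data known. All members may be named. From each other list up to 3 called genes per direction and knockout, those with the smallest adjusted p, could be named. The processed gene copies and Y-linked genes were added after their values were seen.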

Additional observations from a re-analysis of the deposited data

Results flagged for a closer look

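In 12 members the change in the Prdm16 knockout differed from the change in the PR domain knockout, each against its own control, as tested by the contrast of both changes in limma with Benjamini-Hochberg adjustment. The value is the Prdm16 knockout's log2 change minus the PR domain knockout's. Below 0 were Ccnd1 at -0.91 ± 0.11 (SE, adjusted p = 3.15e-07), Cdk6 at -0.64 ± 0.15 (0.00265), Ccne1 at -0.61 ± 0.13 (0.00112), Foxm1 at -0.53 ± 0.09 (5.7e-05), Rrm2 at -0.45 ± 0.09 (0.000777) and Ccnd2 at -0.40 ± 0.07 (7.92e-05). Mcm7 at -0.33 ± 0.09 (0.00841) and Mcm2 at -0.24 ± 0.07 (0.0139) followed, and their calls ended without Prdm16 control replicate 1.

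Above 0 were Ccnd3 at 0.41 ± 0.07 (adjusted p = 5.9e-05 in limma), Cdkn1b at 0.35 ± 0.10 (0.0142), Cdk1 at 0.34 ± 0.07 (0.000626) and Ccna2 at 0.33 ± 0.11 (0.0362). The Ccna2 call held in 8 of 18 refits and the Cdkn1b call in 11 of 18, and both ended when 1 of several libraries was left out. Without PR domain knockout replicate 2 the Ccna2 value was 0.11. Since the control sets differed in most of these genes, the effects were measured from unlike starting levels, and the part of that difference was not tested.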

How the results depend on the processing

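Counts of called members changed most on log2(FPKM + 1). It gave 8 in the Prdm16 knockout in place of 23, 1 in the PR domain knockout in place of 13, 0 for the difference in place of 12 and 5 between the controls in place of 32. By group of genes it gave 2 replication, 1 mitotic and 3 cyclin, kinase or inhibitor members lower in the Prdm16 knockout. The 1 mitotic member was Kif23, which the main fit did not call, while Foxm1, Kif11, Bub1b and Cdc20 were not called. In the PR domain knockout it gave 1, 0 and 0 lower. A minimum fold of 1.2 gave 9, 1, 1 and 7 in those 4 comparisons, with 3 replication and 1 mitotic member lower and 1 cyclin, kinase or inhibitor higher in the Prdm16 knockout, and 1, 0 and 0 lower in the PR domain knockout. The DESeq2 Wald test called 5 members in the PR domain knockout (2 replication, 1 mitotic) and no filter 7 (3 and 2). The mitotic count there, 5, was 3 with TMM, DESeq2 median-ratio scaling or edgeR, and total-fragment scaling gave 7 mitotic members lower in the Prdm16 knockout in place of 4. Leaving out 1 library gave 5 to 17 members in the PR domain knockout, 2 to 6 of them lower replication genes and 1 to 7 mitotic. These are the extremes without PR domain knockout replicates 2 and 1, and the mitotic count was also 1 without PR domain control replicate 1. The cause was not tested.

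On log2(FPKM + 1) signs turned for the difference in Mcm7 (0.050) and Foxm1 (0.029), for Bub1b in the PR domain knockout (0.14) and for Kif23 in the Prdm16 knockout (-0.35). Of 80 called values of single members, 13 held in each of the 19 refits (18 for the difference) and 11 of those also at the minimum fold, 64 ended on FPKM and 32 when some 1 library was left out. Sign changes with no call on either side were not counted as turned. The replicate numbers share no more than a number (correlations of -0.036 to 0.031). With a replicate block 13 and 32 members were called in the PR domain knockout and between the controls, as without it, and in the Prdm16 knockout the count stayed at 23, with the call of Ccnb1 ended and Cdkn2c called higher. The difference kept 12.

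Over all loci, calls in the Prdm16 knockout were 45.9% higher, and 55% with TMM scaling in the same limma model and 55.5% in edgeR, which also used TMM, those in the PR domain knockout 44.2% and with DESeq2 scaling 54.4%, and those for the difference 52.4% and with total-fragment scaling 37%. With 2 libraries per group, small changes can go undetected.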
